A study of Mus musculus with 12 samples.

Results

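The neuronal nicotinic acetylcholine receptor genes, and the gene of the receptor regulator Lynx1, were followed in retinal RNA of mice with and without MOG-induced optic neuritis. The members were chosen by gene symbol and number 9 of the 54532 gene identifiers counted: the 8 receptor subunits Chrna3, Chrna4, Chrna5, Chrna6, Chrna7, Chrnb2, Chrnb3 and Chrnb4, and Lynx1. Each of the 9 symbols had 1 identifier, and all 9 genes were among the 18299 genes that passed the filter on low counts and were tested.

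The retinas came from wild type female C57BL/6 mice aged 13 weeks, in 4 groups with 3 libraries each. SHAM was the sham control, MOG mice had been immunized with a peptide of myelin oligodendrocyte glycoprotein in complete Freund's adjuvant with pertussis toxin, and the GB20 and GV16 groups had been immunized in the same way and needled at the acupoint GB20 or at the control site GV16 under xylazine and ketamine. Whether SHAM mice received adjuvant and toxin, and whether mice without needling were anaesthetized, is not given in the sources used here. A group held 2 or 3 mice in each of 3 repeats of the experiment. It is not stated outright whether the mice of a repeat were pooled into 1 library, so the p-values measure the spread between these libraries. The total count per library was 16637268 to 18033426 in SHAM, 16122738 to 18067710 in MOG, 16338917 to 19194280 in GB20 and 15860278 to 16198995 in GV16.

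Neuronal nicotinic receptors are cation channels that open on binding acetylcholine and are built as rings of alpha and beta subunits, with Chrna7 able to form a channel of 1 subunit type. In the retina acetylcholine is released by starburst amacrine cells and acts on amacrine and ganglion cells, and receptors with the alpha6 and beta3 subunits are typical of retinal ganglion cells and their axons. Lynx1 is a membrane-anchored protein of the Ly6 family that binds nicotinic receptors and lowers their response to acetylcholine.

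The 9 genes differed widely in level. Per gene length, in FPKM (counts scaled by gene length and library size, mean ± SD, n = 3 SHAM libraries), Lynx1 was at 43.8 ± 2.25 and Chrna6 at 33.0 ± 1.76. Chrnb3 followed at 10.8 ± 0.605 FPKM and Chrnb2 at 8.05 ± 0.391 FPKM. Chrna4 (3.89 ± 0.0511 FPKM) and Chrna7 (2.07 ± 0.195 FPKM) were lower. Chrna5 (1.55 ± 0.153 FPKM) and Chrna3 (1.52 ± 0.0907 FPKM) overlapped in SHAM, and Chrnb4 was lowest at 0.589 ± 0.0349 FPKM. Apart from Chrna5 and Chrna3, each gene in this order lay in all 3 SHAM libraries above the next one. In MOG, GB20 and GV16 the order by mean FPKM was the same, but the libraries of Chrnb3 and Chrnb2 overlapped in each of these groups. The FPKM values of Chrna5 and Chrna3 also overlapped in MOG and GB20, and those of Chrna7 and Chrna5 overlapped in GB20.

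**Figure D1:**
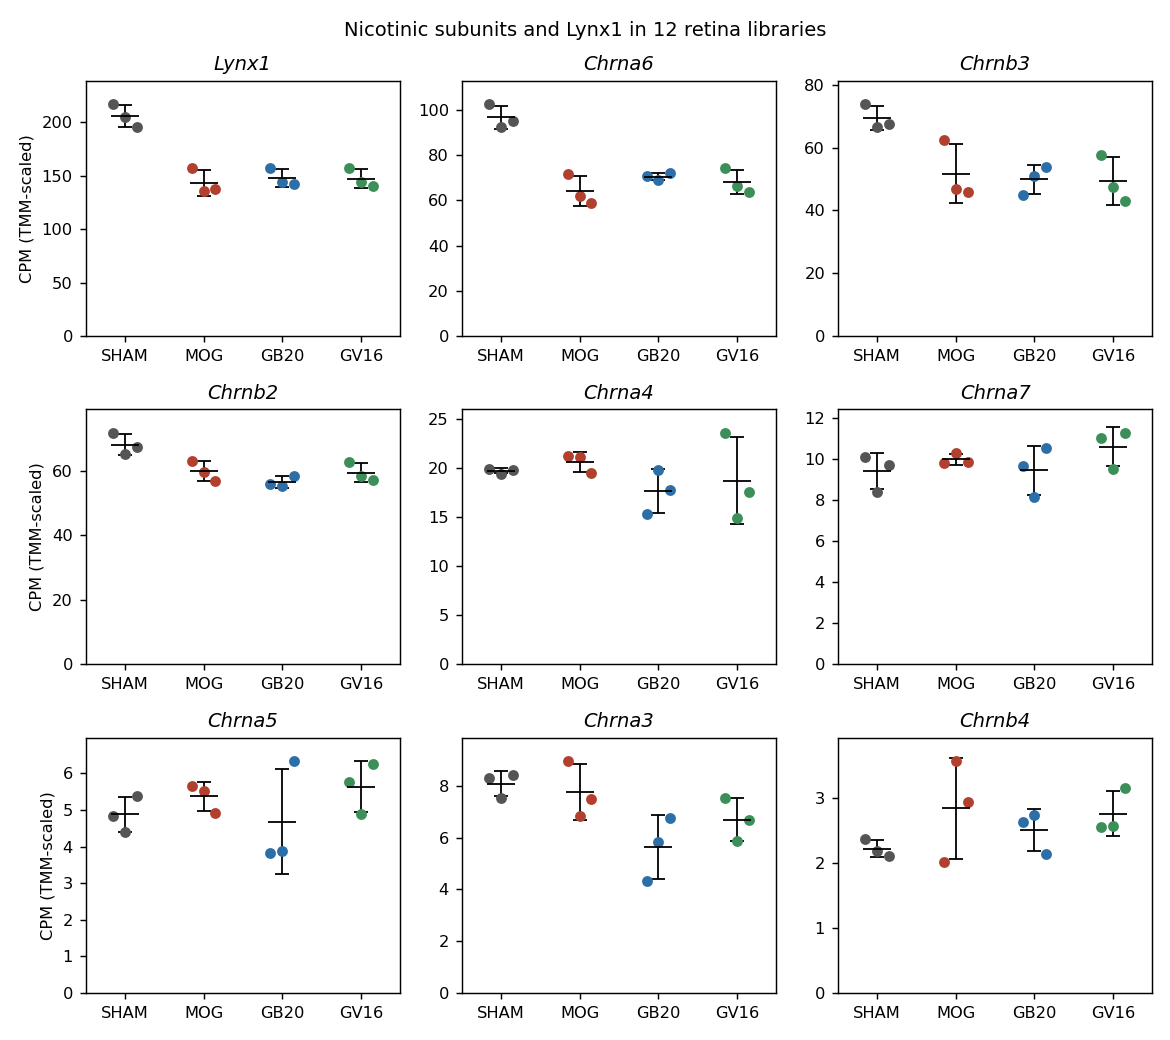
CPM (counts scaled by library size with TMM; each panel has its own axis from 0) of the 9 genes in the 12 libraries, with points for libraries and bars for the mean and SD of each group (n = 3). Every immunized library of Lynx1, Chrna6, Chrnb3 and Chrnb2 lies below the 3 SHAM libraries.

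The comparison of MOG with SHAM asked what immunization changed in the retina. Chrna6 and Lynx1 were lower in MOG, by about the same proportion, and the other 7 genes did not pass the test. These 2 of 9 genes stood against 1.34% of all genes tested (245 genes, at an adjusted p under 0.05 in edgeR's quasi-likelihood test). The 4 genes with every MOG library below every SHAM library were Chrna6, Chrnb3, Chrnb2 and Lynx1, where 8.34% of all genes tested lay so.

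Chrna6 (ENSMUSG00000031491, GRCm38 chr8:27403212-27413944, minus strand, protein-coding) encodes the alpha6 subunit. The CPM was 102.6, 92.7 and 95.1 in the libraries SHAM 1 to 3, 71.8, 62.1 and 59.0 in those of MOG, 70.8, 68.9 and 72.1 in those of GB20 and 74.2, 66.5 and 63.8 in those of GV16. The 3 SHAM libraries were the highest of the 12, and the MOG, GB20 and GV16 libraries overlapped. In MOG the gene fell by 33.6% against SHAM, a log2 fold change of -0.59 (SE 0.0797, 95% confidence interval -0.76 to -0.43, adjusted p = 0.000186 in edgeR after Benjamini-Hochberg correction). With any 1 of the 12 libraries left out, this value stayed between -0.68 and -0.53 and was called in all 12 fits.

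Lynx1 (ENSMUSG00000022594, chr15:74747852-74753046, minus strand, protein-coding) was counted at 216.8, 205.1 and 195.8 CPM in SHAM, at 157.3, 135.2 and 137.3 CPM in MOG, at 157.1, 144.2 and 141.8 CPM in GB20 and at 157.1, 144.1 and 140.3 CPM in GV16. All 9 immunized libraries lay below the lowest SHAM library, and in each of the 4 groups library 1 was the highest of its 3. Lynx1 fell by 30.4% in MOG against SHAM (log2 fold change -0.52, SE 0.0758, 95% confidence interval -0.68 to -0.37, adjusted p = 0.000448 in edgeR after Benjamini-Hochberg correction). The range with 1 library left out was -0.60 to -0.48, with the call made in all 12 fits.

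Chrnb3 (ENSMUSG00000031492, chr8:27368711-27399730, plus strand) encodes the beta3 subunit, an accessory subunit that joins alpha6 in many receptors, and lies 3.48 kb from Chrna6. Its values were 73.9, 66.7 and 67.6 CPM in SHAM, 62.5, 46.8 and 45.9 CPM in MOG, 44.8, 51.1 and 54.0 CPM in GB20 and 57.8, 47.6 and 42.9 CPM in GV16. MOG library 1 and GV16 library 1 were the nearest to SHAM, and no immunized library reached it. The log2 fold change in MOG was -0.42 (SE 0.117, 95% confidence interval -0.67 to -0.18), with an adjusted p of 0.0978 in edgeR after Benjamini-Hochberg correction, so it was not called. Without MOG replicate 1 it was -0.58 (adjusted p = 0.00597 in edgeR after Benjamini-Hochberg correction), and DESeq2 on the 12 libraries also called it (adjusted p = 0.0462 with Benjamini-Hochberg adjustment). With a replicate block for the library number it was called too (-0.43, adjusted p = 0.0438 in edgeR after Benjamini-Hochberg correction). Over all alternatives that value ranged from -0.58 to -0.34, and leaving out 1 library gave adjusted p in edgeR after Benjamini-Hochberg correction from 0.00597 to 0.467.

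Chrnb2 (ENSMUSG00000027950, chr3:89746195-89764632, minus strand) encodes the beta2 subunit, the usual partner of alpha4 and alpha6. It shares 16.3% of its exon bases with Adar on the other strand, and since the strand setting of the counting is not given, part of its count could belong to Adar. The values were 71.8, 65.3 and 67.2 CPM in SHAM, 63.1, 59.7 and 56.9 CPM in MOG, 55.9, 55.2 and 58.5 CPM in GB20 and 62.8, 58.4 and 57.0 CPM in GV16. The immunized libraries again all lay below SHAM, by a smaller step than for Chrna6. The log2 fold change in MOG was -0.19 (SE 0.0721, 95% confidence interval -0.33 to -0.036, adjusted p = 0.265 in edgeR after Benjamini-Hochberg correction). Adar itself had a log2 fold change of 0.010 in MOG vs. SHAM (adjusted p = 0.972 in edgeR after Benjamini-Hochberg correction).

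The remaining 5 subunits were measured from fewer counts. Chrna4 (ENSMUSG00000027577, chr2:181018380-181043546), the alpha4 subunit of the main brain receptor, ranged from 19.4 to 19.9 CPM in SHAM, 19.5 to 21.3 CPM in MOG, 15.4 to 19.8 CPM in GB20 and 14.9 to 23.6 CPM in GV16. Chrna7 (ENSMUSG00000030525, chr7:63098692-63212569), whose product can form channels alone, ranged from 8.41 to 10.1 CPM in SHAM and from 8.15 to 11.3 CPM over the 9 immunized libraries. Neither gene separated the groups. In MOG vs. SHAM, Chrna4 had a log2 fold change of 0.065 (95% confidence interval -0.20 to 0.33) and Chrna7 of 0.083 (-0.19 to 0.35).

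Chrna5, Chrna3 and Chrnb4 lie next to each other on chromosome 9, from 54980880 to 55048779, with gaps of 2.33 and 1.59 kb, and encode the subunits typical of receptors in autonomic ganglia and some brain nuclei. Chrna5 (ENSMUSG00000035594) ranged from 4.41 to 5.38 CPM in SHAM and from 3.81 to 6.33 CPM over the immunized libraries. Chrna3 (ENSMUSG00000032303) ranged from 7.53 to 8.43 CPM in SHAM, 6.82 to 8.95 CPM in MOG, 4.33 to 6.76 CPM in GB20 and 5.85 to 7.51 CPM in GV16. Chrnb4 (ENSMUSG00000035200) was counted between 35 and 58 times per library, at 2.11 to 2.36 CPM in SHAM, 2.01 to 3.56 CPM in MOG, 2.13 to 2.74 CPM in GB20 and 2.55 to 3.16 CPM in GV16. The 3 neighbours did not share 1 direction in the fit of all 12 libraries. In MOG vs. SHAM the log2 fold changes were 0.14 (SE 0.186) for Chrna5, -0.057 (SE 0.159) for Chrna3 and 0.35 (SE 0.23) for Chrnb4, none of them called. With 1 library left out the ranges were 0.076 to 0.21, -0.18 to 0.032 and 0.16 to 0.55 in that order, so the sign of Chrna3 was not fixed. At these counts the intervals are wide, with an upper bound of 0.83 for Chrnb4 and a lower bound of -0.39 for Chrna3.

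The comparisons of GB20 and GV16 with MOG asked whether needling altered the immunized retina. No member was called in GB20 vs. MOG, where 0.24% of all genes tested were called, in GV16 vs. MOG (0.164%) or in GB20 vs. GV16 (0.00546%, 1 gene) in edgeR after Benjamini-Hochberg correction. At an unadjusted p under 0.05 the members numbered 1 in GB20 vs. MOG (8.0% of all genes tested), 0 in GV16 vs. MOG (5.30%) and 0 in GB20 vs. GV16 (2.93%). DESeq2 on the 12 libraries called 0 members in each, out of 57, 43 and 5 genes called. Chrna6 had a log2 fold change of 0.14 in GB20 vs. MOG (95% confidence interval -0.031 to 0.30) and of 0.084 in GV16 vs. MOG (-0.083 to 0.25). For Lynx1 the values were 0.044 in GB20 vs. MOG (-0.11 to 0.20) and 0.039 in GV16 vs. MOG (-0.12 to 0.20). The 1 member under the unadjusted threshold was Chrna3, whose 3 GB20 libraries lay below the 3 MOG libraries, as those of 7.71% of all genes tested did. The log2 fold change of Chrna3 in GB20 vs. MOG was -0.47 (SE 0.165), with an adjusted p of 0.456 in edgeR after Benjamini-Hochberg correction. With 1 library left out it ranged from -0.62 to -0.30 and was not called. Between the needled groups the Chrna3 value was -0.25 (SE 0.169, adjusted p = 1.0 in edgeR after Benjamini-Hochberg correction), with a range of -0.40 to -0.086 when 1 library was left out.

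Set against SHAM, the needled groups showed the same 2 genes lower. In GB20 vs. SHAM 2 members were called, beside 0.344% of all genes tested, and in GV16 vs. SHAM 2 members, beside 0.656%. These comparisons share their SHAM libraries with MOG vs. SHAM. Chrna6 fell by 27.0% in GB20 (log2 fold change -0.45, SE 0.0793, adjusted p = 0.00759) and by 29.6% in GV16 (-0.51, SE 0.0797, adjusted p = 0.00192), both in edgeR after Benjamini-Hochberg correction. Lynx1 fell by 28.3% in GB20 (-0.48, SE 0.0757, adjusted p = 0.00331) and by 28.5% in GV16 (-0.48, SE 0.0758, adjusted p = 0.00192) in edgeR after Benjamini-Hochberg correction. The call of Chrna6 in GB20 was lost without SHAM replicate 1 (-0.41, adjusted p = 0.0887) or GB20 replicate 1 (-0.46, adjusted p = 0.0695) in edgeR after Benjamini-Hochberg correction, where the adjusted p lay between 0.00264 and 0.0887 with each library left out. Neither gene was called in either comparison when log2(FPKM + 1) was tested with limma, where the values were -0.44 in GB20 and -0.49 in GV16 for Chrna6 and -0.46 and -0.47 for Lynx1. Chrnb3 had a log2 fold change of -0.48 (SE 0.117) in GB20 and -0.49 (SE 0.118) in GV16, with adjusted p values of 0.0976 and 0.0731 in edgeR after Benjamini-Hochberg correction. Both Chrnb3 values were called by DESeq2 on the 12 libraries (adjusted p = 0.026 and 0.016 with Benjamini-Hochberg adjustment). Both were also called with a replicate block (adjusted p = 0.0456 and 0.0283 in edgeR after Benjamini-Hochberg correction).

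Every GB20 library lay below every SHAM library for 5 members, Chrna3, Chrna6, Chrnb2, Chrnb3 and Lynx1, and for 7.09% of all genes tested. The same 5 members lay so in GV16, where the share of all genes was 7.6%, but on FPKM the GV16 and SHAM libraries of Chrna3 overlapped. Chrnb4 was the 1 member with every GV16 library above every SHAM library, as 6.86% of all genes were, and its log2 fold change in GV16 vs. SHAM was 0.32 (SE 0.232, adjusted p = 0.66 in edgeR after Benjamini-Hochberg correction).

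**Figure D2:**
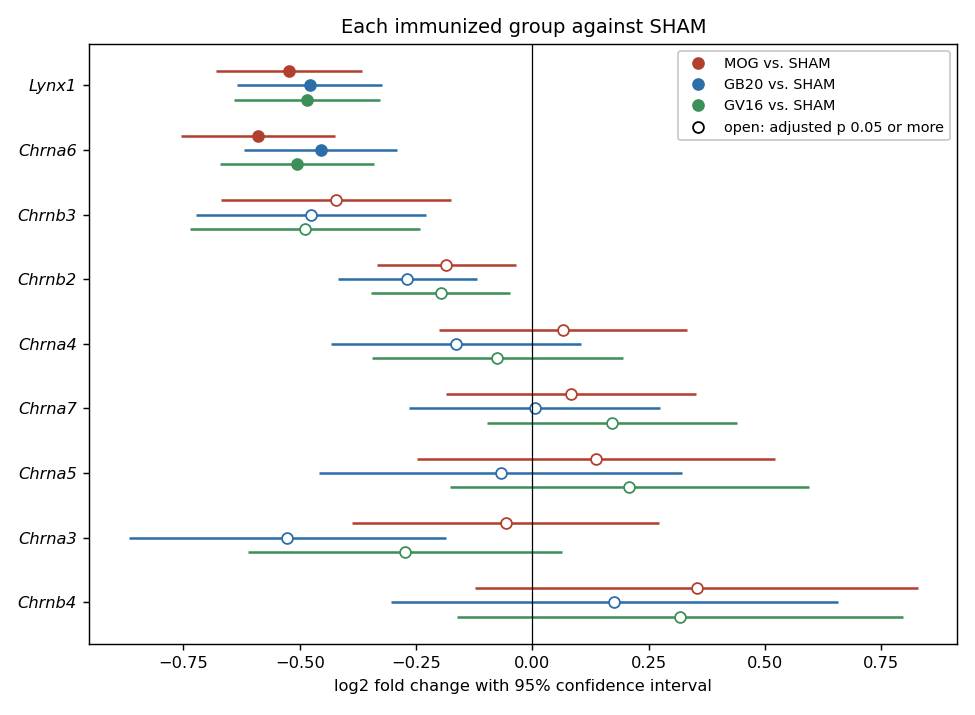
Log2 fold change of each gene in MOG, GB20 and GV16 against SHAM (points, filled where the adjusted p was under 0.05) with its 95% confidence interval (lines). Lynx1 and Chrna6 are filled in all 3 comparisons, and the intervals of Chrna4, Chrna7, Chrna5 and Chrnb4 include 0 in each.

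Since all 3 other groups had been immunized, their mean was also compared with SHAM, 9 libraries against 3. Here 3 members were lower and none higher, Chrna6, Lynx1 and Chrnb3, beside 1.63% of all genes tested (99 higher and 199 lower). Over the 9 immunized libraries Chrna6 had its lowest value at 59.0, its median at 68.9 and its highest at 74.2 CPM, against 92.7 CPM in the lowest SHAM library. It fell by 30.1% (log2 fold change -0.52, SE 0.0631), and Lynx1 fell by 29.1% (-0.50, SE 0.0601), each with an adjusted p of 4.83e-05 in edgeR after Benjamini-Hochberg correction. Chrnb3 fell by 27.4% (-0.46, SE 0.0934, adjusted p = 0.0141 in edgeR after Benjamini-Hochberg correction). The Chrnb3 call was lost without SHAM replicate 1 (-0.42, adjusted p = 0.169) or SHAM replicate 2 (-0.49, adjusted p = 0.102) in edgeR after Benjamini-Hochberg correction, out of a range of 0.000586 to 0.169 with each library left out, and limma on log2(FPKM + 1) did not make it (-0.42, adjusted p = 0.147 with Benjamini-Hochberg adjustment). All 9 immunized libraries lay below all 3 SHAM libraries for Chrna6, Chrnb2, Chrnb3 and Lynx1, 4 of 9 members, and for 1.92% of all genes tested. For Chrnb2 the value was -0.22 (SE 0.0582, adjusted p = 0.0609 in edgeR after Benjamini-Hochberg correction). It was called by DESeq2 (adjusted p = 0.0385), by edgeR with a length offset (adjusted p = 0.0184) and by edgeR with a replicate block (adjusted p = 0.026), each with Benjamini-Hochberg adjustment. The median over the 9 members was -0.22, against -0.0053 over all genes tested.

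Chrna6 and Chrnb3 are neighbours, and the next tested gene beyond Chrna6, Unc5d, lay 1233 kb away with a log2 fold change of 0.055 (SE 0.0858) in immunized vs. SHAM. On the other side Eif4ebp1, 92.0 kb from Chrnb3, had a value of 0.21 (SE 0.217). Neither was called. The neighbours of Lynx1 were Them6, at a distance of 23.2 kb, where the log2 value was -0.29 (SE 0.0738, adjusted p = 0.0476 in edgeR after Benjamini-Hochberg correction), and Ly6e, another gene of the Ly6 family, at 202 kb, with -0.24 (SE 0.0891, not called).

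Next to Chrna4 lay Col20a1, at -0.048 in immunized vs. SHAM. Mkrn3 (-0.024) and 4930554H23Rik (0.030) flanked Chrna7, and 4632404H12Rik (-0.068) lay beside Chrnb2 opposite Adar (-0.052). Psma4 (-0.043) and Gm47887 (0.22) bordered the Chrna5, Chrna3 and Chrnb4 cluster. None of these 7 neighbouring genes was called.

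RefSeq promoter sequences (GRCm38.p6) were held for 6 of the 9 genes, Chrna3, Chrna4, Chrna5, Chrna7, Chrnb2 and Chrnb4, and not for Chrna6, Chrnb3 or Lynx1. The windows of Chrnb2, the member among the 6 whose immunized libraries all lay below SHAM, at chr3:89764623-89764832 (minus strand), and of Chrna7, which did not separate the groups, at chr7:63212517-63212726 (minus strand), are shown so that the 2 can be compared. Each runs 5′ to 3′ from 200 bases before the start to 10 after it, with the GC box GGGCGG (searched on both strands, with CCGCCC as its reverse) in capitals.
Chrnb2: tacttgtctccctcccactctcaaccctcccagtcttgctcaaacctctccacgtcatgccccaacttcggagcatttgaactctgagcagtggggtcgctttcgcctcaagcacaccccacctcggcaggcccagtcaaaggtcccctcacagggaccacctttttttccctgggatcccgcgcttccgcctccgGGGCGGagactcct
Chrna7: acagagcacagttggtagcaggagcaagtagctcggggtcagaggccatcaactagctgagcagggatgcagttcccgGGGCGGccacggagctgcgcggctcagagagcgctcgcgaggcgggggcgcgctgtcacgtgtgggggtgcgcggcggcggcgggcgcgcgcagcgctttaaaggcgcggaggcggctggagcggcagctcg
Both hold 1 match, in Chrnb2 across the start and in Chrna7 at -122 bases from it. Of 32851 windows of this length 31.8% hold the motif. Chrna4 has 3 matches, Chrna3 has 1, Chrna5 has 4 at 1 of its listed starts and 0 at the other, and Chrnb4 has 0, so that matches occurred in Chrnb2 and in members whose immunized and SHAM libraries overlapped.

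The markers of retinal ganglion cells moved with Chrna6, Lynx1 and Chrnb3. This list was chosen with earlier results of these data known. It includes Pou4f1, Isl2, Sncg, Uchl1 and Tppp3, which the study had reported as lowered in the same data, so its counts are no independent support. Of the 19 ganglion cell markers, all tested, 16 were lower and none higher in MOG vs. SHAM (median log2 fold change -0.88). Lower in GB20 vs. SHAM were 6 (median -0.51), in GV16 vs. SHAM 15 (-0.68) and in immunized vs. SHAM 16 (-0.66). The called shares of all genes tested were 1.34%, 0.344%, 0.656% and 1.63% in that order. The counts of 6 and 15 do not compare GB20 with GV16. Tested directly, none of the 19 markers was called between GB20 and GV16 (median 0.14). The same held for GB20 against MOG (0.21) and GV16 against MOG (0.11), with 0 of the 19 markers called. Their summed level was 1553, 1438 and 1378 CPM in SHAM, 1007, 884 and 877 CPM in MOG, 1019.9, 1037 and 1050.2 CPM in GB20 and 1137, 945 and 860.4 CPM in GV16, with Nefl as the most abundant gene at a mean of 190.2 CPM. None of the 19 markers was at 0. In bulk retina, fewer ganglion cells and less RNA of these genes per cell cannot be told apart, and the part of the markers' change in the lower counts of the members was not tested.

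Library by library, against the SHAM mean of log2 CPM, the median of the markers was -0.69, -0.91 and -0.96 in MOG 1 to 3. Chrna6 was at -0.43, -0.64 and -0.71 in these libraries and Lynx1 at -0.39, -0.61 and -0.58. Library 1 was the least lowered of the MOG libraries in all 3 measures, and in MOG both genes lay nearer to SHAM than the marker median. In GV16 the marker median was at -0.37, -0.70 and -0.91 and Chrna6 at -0.38, -0.54 and -0.60, again with library 1 nearest to SHAM. In GB20 the 3 libraries were close together, at -0.56, -0.49 and -0.53 for the marker median and at -0.45, -0.49 and -0.42 for Chrna6.

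**Figure D3:**
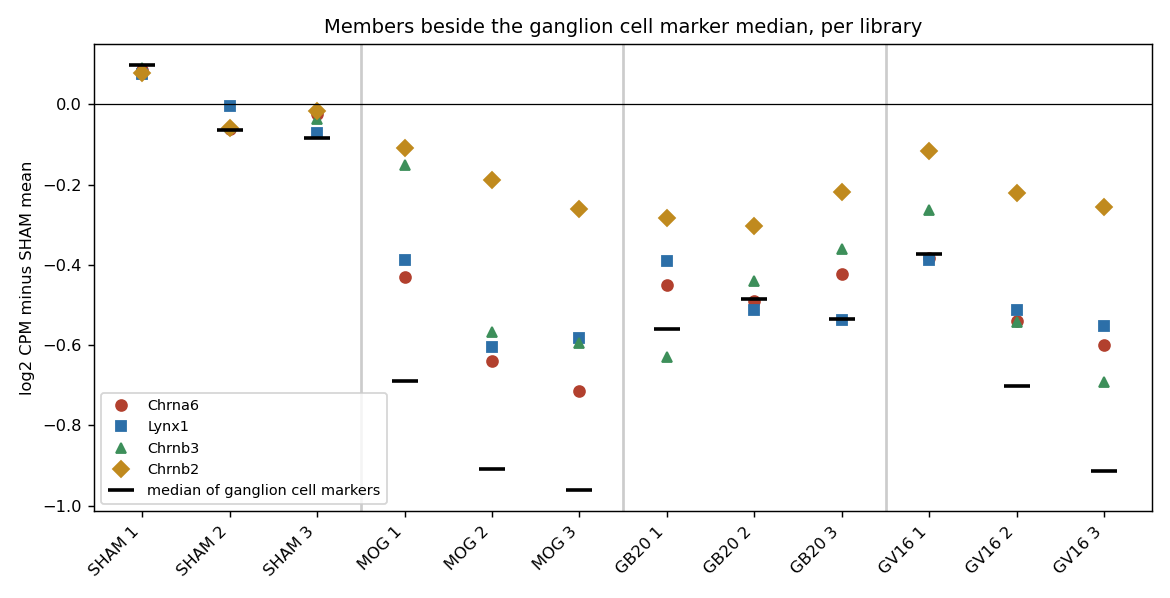
Log2 CPM of Chrna6, Lynx1, Chrnb3 and Chrnb2 in each library minus the mean of the 3 SHAM libraries, with the median of the 19 ganglion cell markers as a black bar. In MOG all 4 genes lie above the black bar in each library, while among the 6 needled libraries Lynx1 lies below it in 3, Chrna6 in 2 and Chrnb3 in 1, and in all 4 genes' MOG and GV16 values library 1 is the nearest to 0.

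Levels were then expressed relative to the ganglion cell markers, as the log2 FPKM of a gene minus the mean log2 FPKM of the 19 markers, as a description with no test. The marker mean itself was 0.63 lower over the immunized libraries than in SHAM and 0.73 lower in MOG, so a gene at an equal level in all groups would lie that far above SHAM. On this scale SHAM 1 to 3 had Chrna6 at 1.14, 1.13 and 1.21, MOG at 1.31, 1.33 and 1.27, GB20 at 1.25, 1.18 and 1.23, and GV16 at 1.15, 1.32 and 1.39. Its mean over the immunized libraries was 0.11 above that of SHAM and the ranges overlapped. Relative to the markers, Lynx1 was 0.13 and Chrnb3 0.16 above SHAM on average, also with overlap. Larger differences on this scale were those of Chrnb2 (0.41), Chrna4 (0.56), Chrna7 (0.71) and Chrnb4 (0.89), for each of which all 9 immunized libraries lay above the 3 SHAM libraries, as for 62.0% of all genes tested. Chrna5 (0.71) and Chrna3 (0.33) had overlapping libraries. In MOG all 3 libraries of each of the 9 genes lay above SHAM on this scale, as for 83.8% of all genes tested, so the overlaps came from GB20 or GV16 libraries.

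The make-up of the RNA of the 8 member subunits also differed between groups. Other subunits found in these retinas, Chrnb1 and Chrna2 among them, are left out here. The 8 subunits summed to 64.8, 58.8 and 60.7 FPKM in SHAM, 52.3, 45.8 and 43.8 FPKM in MOG, 45.4, 46.9 and 49.9 FPKM in GB20 and 53.0, 45.3 and 45.4 FPKM in GV16. All immunized libraries were below SHAM, as for 1.92% of all genes tested as single genes on CPM, and the 3 immunized groups overlapped. Chrna6 and Chrnb3 together held 71.2% of this sum in SHAM on average, so it largely follows these genes. Chrna6 made up 54.0%, 53.8% and 53.3% of this sum in SHAM and 47.0%, 46.1% and 46.0% in MOG. Its share was 53.0%, 50.3% and 49.6% in GB20 and 48.0%, 49.99% and 48.1% in GV16. Every GB20 and GV16 library thus had a Chrna6 share above the 3 MOG libraries and below the 3 SHAM libraries, while the Chrna6 level itself overlapped between MOG and the needled groups. The rest of the sum differed too: the Chrna3 share was 2.80% to 3.24% in MOG, above every library of GB20 (1.79% to 2.57%) and GV16 (2.43% to 2.78%). A share in this sum has no counterpart over all genes to be read against.

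The share of Chrnb3 was 17.6% ± 0.221 in SHAM and 17.0% ± 1.51, 16.4% ± 0.973 and 16.1% ± 1.17 in MOG, GB20 and GV16 (SD, n = 3), with overlap between MOG and SHAM and with all GB20 and GV16 libraries below SHAM. Chrnb2 had a share of 13.1% ± 0.0347 in SHAM against 15.04% ± 0.591 in MOG, 14.1% ± 0.314 in GB20 and 14.7% ± 0.585 in GV16, although its level was lower, and every immunized library was above SHAM in this share. The 5 subunits other than Chrna6, Chrnb3 and Chrnb2 together were at 9.61 ± 0.465 FPKM in SHAM and 10.2 ± 0.371 FPKM in MOG, 8.78 ± 0.945 FPKM in GB20 and 9.82 ± 1.36 FPKM in GV16. Every GB20 library of this sum lay below the 3 MOG libraries, but narrowly, with 9.72 FPKM in GB20 3 and 9.76 FPKM in MOG 3. As single genes on CPM, 7.71% of all genes tested lay so. These shares and sums carry no test, and 1 subunit's share changes when another's level does.

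**Figure D4:**
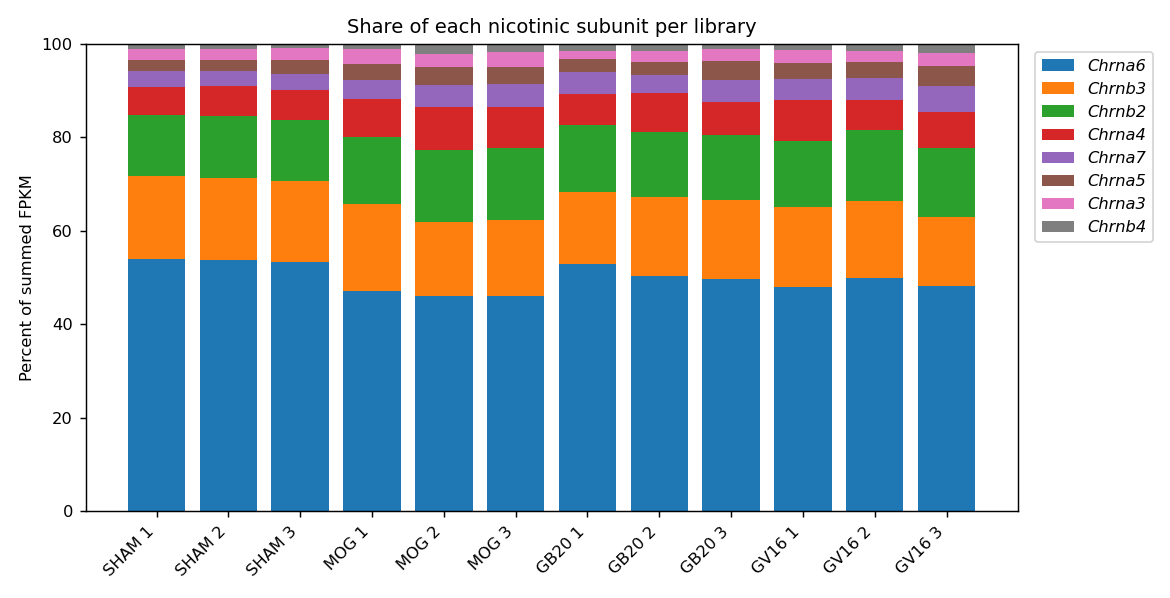
Share of each of the 8 nicotinic subunits in their summed FPKM (bars, percent) for the 12 libraries. The Chrna6 share is between 53.3% and 54.0% in SHAM, between 46.0% and 47.0% in MOG, and between these ranges in the GB20 and GV16 libraries.

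The genes whose profiles over the 12 libraries were most like those of Chrna6 and Lynx1 were sought among all genes tested, by the root mean square difference of the centred log2 CPM. Outside the members these were Rasd2 (0.058), Sult4a1 (0.062) and Limk1 (0.070) for Chrna6, and Cend1 (0.072), Sult4a1 (0.073) and the neuronal tubulin gene Tubb3 (0.078) for Lynx1. Chrna6 and Lynx1 differed from each other by 0.059, which made Chrna6 the nearest of all tested genes to Lynx1 and Lynx1 the second nearest to Chrna6. Both were taken because they were called in MOG vs. SHAM, and the same libraries set the distance. Their shared step from SHAM thus enters it, and their nearness is no separate support. From Chrna6, Chrnb3 was at 0.11 and ranked 31, and Chrnb2 at 0.16 ranked 226. The other 5 subunits were at 0.28 to 0.43 from Chrna6 and ranked between 7450 and 14832. Their mean levels were 2.58 to 19.2 CPM, against 75.0 CPM for Chrna6 and 161 CPM for Lynx1. Counting noise at low levels adds to the distance, so these ranks also depend on level.

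Other genes of the cholinergic system were counted by role. Of the other nicotinic subunits, those of muscle and the inner ear among them, 4 of 8 were tested and none was called in any of the 7 comparisons, with Chrnb1 (6.04 FPKM in SHAM), Chrna2 (1.49) and Chrne (0.196) the most abundant. None of the 4 muscarinic receptors tested of 5 was called, and their medians were -0.23 in MOG vs. SHAM and -0.22 in immunized vs. SHAM. Chrm2, Chrm3 and Chrm1, the most abundant, were at 1.69, 1.68 and 0.857 FPKM in SHAM.

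Genes that make, carry or break down acetylcholine were not called either, 0 of 6 tested of 7, with a median log2 fold change of 0.068 in immunized vs. SHAM. Ache, the esterase that ends the signal, was at 18.4 FPKM in SHAM and had a value of -0.046 (SE 0.0713), and Chat, the enzyme of its synthesis, had 0.056 (SE 0.101). Prima1, the membrane anchor of the esterase, was at 4.38 FPKM in SHAM. The 6 markers of starburst amacrine cells, which release acetylcholine, had 3 genes in common with this list and had 0 calls in the 7 comparisons, and their summed level was 85.0 to 103.0 CPM in SHAM and 87.3 to 102.4 CPM over the immunized libraries.

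Among the 6 genes of receptor assembly and trafficking, all tested, 2 were lower in MOG vs. SHAM and in immunized vs. SHAM, and none was called in the other 5 comparisons. Vsnl1, a calcium sensor known to affect the surface level of alpha4 receptors, fell by 0.56 on the log2 scale in MOG (SE 0.121, adjusted p = 0.0314 in edgeR after Benjamini-Hochberg correction), and Ywhah, an adaptor protein that can bind the alpha4 subunit, fell by 0.32 (SE 0.0804, adjusted p = 0.0491 in edgeR after Benjamini-Hochberg correction). In SHAM, Vsnl1 was at 51.3 FPKM and Ywhah at 49.6 FPKM, above the 43.8 FPKM of Lynx1. Ric3 and Tmem35a, chaperones of alpha7 receptors, were not called, with values of 0.024 and -0.24 in MOG vs. SHAM, and Rer1 was at 36.5 FPKM in SHAM. Of the Ly6 family proteins other than Lynx1, 5 of 8 were tested and none was called in the 7 comparisons. Their median was -0.23 in immunized vs. SHAM with 5 of 5 below 0, against a median of -0.0053 over all genes tested. By group it was -0.14 in MOG vs. SHAM (4 of 5 below 0), -0.15 in GB20 (4 of 5) and -0.37 in GV16 (5 of 5). Ly6e (6.74 FPKM in SHAM), Ly6h (6.21) and Lypd6 (5.74) were well under the level of Lynx1.

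**Figure D5:**
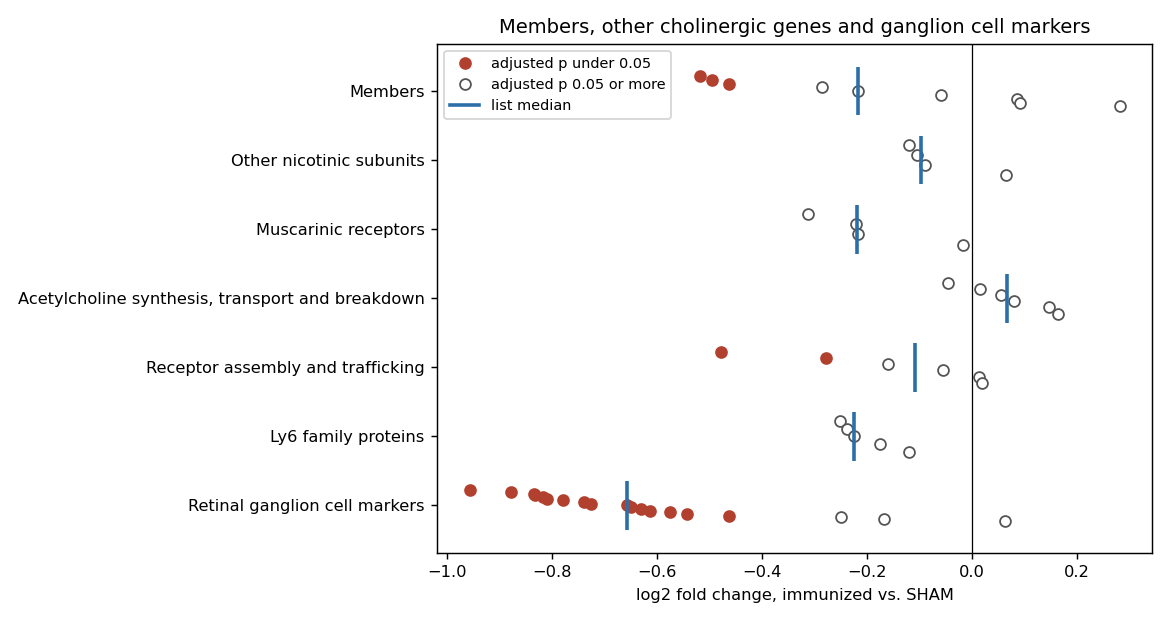
Log2 fold change in immunized vs. SHAM of every tested gene (points) of the members, 5 lists of cholinergic genes and the ganglion cell markers, with list medians as blue bars. Red points, with an adjusted p under 0.05, are 3 of 9 members, 2 of 6 assembly and trafficking genes and 16 of 19 ganglion cell markers.

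Fewer markers of other cells were called. In MOG vs. SHAM none of the 9 amacrine, 4 horizontal, 8 bipolar, 8 rod and 8 cone cell markers tested was called, with median log2 fold changes between -0.038 and 0.026. Of the 8 Müller cell markers 1 was higher, and of the 10 microglia markers 2 were higher, with a median of 0.33 and a summed level of 41.9 to 49.5 CPM in SHAM and 55.0 to 69.1 CPM over the immunized libraries. In immunized vs. SHAM 3 microglia markers and 1 Müller cell marker were higher and 1 Müller cell marker lower, and in GV16 vs. SHAM 1 cone and 1 microglia marker were higher and 1 Müller cell marker lower. In GB20 vs. MOG and in GV16 vs. MOG 1 Müller cell marker was lower. T cell, lens, skeletal muscle, blood, pigment epithelium and oligodendrocyte markers had 0 calls in the 7 comparisons, with 1 of 8, 1 of 7, 3 of 10, 3 of 4, 5 of 5 and 4 of 6 genes tested. The pigment epithelium markers nevertheless summed to 9.26 to 12.1 CPM in SHAM, 17.7 to 27.9 CPM in MOG, 18.0 to 21.6 CPM in GB20 and 10.2 to 34.0 CPM in GV16, with every MOG and GB20 library above SHAM. In the oligodendrocyte markers MOG library 2 stood apart, at a sum of 78.65 CPM against 43.7 to 53.6 CPM in the other 11 libraries. The lens markers summed to 11.35 CPM in SHAM library 2 and 7.24 CPM in GB20 library 2, against 0.681 to 1.68 CPM in the other 10.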

How the data were processed

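Poly(A) RNA of 12 retina libraries had been sequenced in pairs. The authors aligned reads with HISAT2 2.0.5 to mm10, per the labels, and counted them per gene with FeatureCounts. They deposited whole-number counts without normalization, and FPKM values computed by the authors from count and gene length. The strand setting is not given in the sources used here. Names and coordinates came from GENCODE on GRCm38, which holds 54409 of 54532 identifiers.

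The count test was that of edgeR 4.0.16 under R 4.3.3 (expression filter with 4 groups, TMM, robust quasi-likelihood, 12 libraries in 1 fit, 8 residual degrees of freedom, 7 comparisons), and called at a Benjamini-Hochberg adjusted p under 0.05. Libraries differing by sampling noise alone were looked for by chi-square, and none was found. The fits were tested on simulated data. Named are all members, cholinergic genes called or among the 3 most abundant of a list, 3 genes of most like profile and nearest tested neighbours but 1; Ric3 and Tmem35a were named after their values were seen. Members and lists were chosen with earlier results of these data known. Alternatives were DESeq2 1.42.0, limma 3.58.1 on FPKM, scaling, filter, length offset, replicate block and leaving out each library.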

Additional observations from a re-analysis of the deposited data

How the results depend on the processing

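Of 1449 values of the members' log2 fold changes under 23 alternatives, 1398 kept their side of the threshold, 19 lost a call, 32 gained one and none turned a called direction; 34 of the 1398, all without a call, changed sign. The number of members called in GB20 vs. SHAM was 0 with limma on log2(FPKM + 1), on log2(FPKM + 0.1) and without its filter, where 6, 6 and 5 genes of all were called, and it was likewise 0 in GV16 vs. SHAM (9, 13 and 7 genes of all). The cause was not tested. Leaving out 1 library gave between 1 and 3 members in GB20 vs. SHAM, with 1 without SHAM replicate 1 (14 genes of all) or GB20 replicate 1 (16 genes of all). The calls over all genes ranged in these fits from 91 to 427 in MOG vs. SHAM, 14 to 116 in GB20 vs. SHAM, 23 to 231 in GV16 vs. SHAM, 94 to 452 in immunized vs. SHAM, 13 to 83 in GB20 vs. MOG, 10 to 38 in GV16 vs. MOG and 0 to 4 in GB20 vs. GV16.

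The labels give libraries a number, and whether it marks 1 of the 3 repeats of the experiment is not stated. The correlation of the deviations of same-numbered libraries lay between -0.097 and 0.29 over 18 pairs, 3 of them over 0.1. Of 12 libraries 9 correlated best with their own number. With a replicate block 4 members were called in GB20 vs. SHAM (182 genes of all, against 63) and 3 in MOG vs. SHAM (404 genes of all). The block also gave 3 members in GV16 vs. SHAM (236 genes of all, against 120) and 4 in immunized vs. SHAM (507 genes of all, against 298). The members gained were Chrnb3 in MOG, GB20 and GV16 vs. SHAM and Chrnb2 in GB20 and immunized vs. SHAM. With the block and a length offset 4 were called in MOG vs. SHAM (456 genes of all, against 245) and 4 in GB20 vs. SHAM (241 genes of all). Shares and levels relative to the markers kept within 1 SD, except that the Chrnb2 share differed by 2.21 points from SHAM on CPM, against 1.54 on FPKM. Depth limits Chrnb4, Chrna5 and Chrna3, with at most 160 counts per library.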
